A study of Mus musculus with 17 samples.

Results

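The inflammasome and pyroptosis loci described here are 8 mouse genes, namely Nlrp3, Nlrc4, Nlrp1b, Pycard, Casp1, Casp4, Gsdmd and Nek7, with the accessible chromatin within 20 kb of their gene bodies (GENCODE annotation of GRCm38, also called mm10). The assay was ATAC-seq, a method that reads out open DNA from where a transposase can place its adapters, and the authors had called peaks separately in 17 libraries. Of the 808470 peak intervals in these lists, 690 lay near the 8 genes. The shortest list held 24389 intervals, and merging that many best intervals of each list gave 34155 sites seen in at least 2 lists, of which 28 belonged to these loci. Of those 28 elements, 8 were promoters, 1 for each gene, with a peak within 1 kb of a start site of a protein-coding transcript, and 20 were distal to these genes, of which 5 lie within 1 kb of the start site of another gene. A further 50 weaker sites near the genes did not reach 2 of the truncated lists and were counted but not tested.

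Inflammasomes are cytosolic complexes that assemble when a sensor protein detects microbial material or cell damage. The sensors NLRP3, NLRC4 and NLRP1B recruit caspase-1, in most cases through the adaptor ASC (encoded by Pycard), and NEK7 binds NLRP3 to license its activation. Caspase-1, and caspase-11 (encoded by Casp4) when it senses cytosolic LPS, cleave gasdermin D, which forms the membrane pores of pyroptosis. In macrophages LPS acting on TLR4 primes this machinery, and Nlrp3 is a known NF-kB target.

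The cells were bone marrow-derived macrophages (BMDMs), obtained by culturing bone marrow of male C57Bl6/J mice, 6 to 12 weeks old, for 7 days in medium that contained L929-conditioned medium. Wild-type (WT) cells were compared with cells lacking Nur77 throughout the body (Nur77-KO, abbreviated KO). Nur77 is a nuclear receptor and the product of Nr4a1. The KO line was made by crossing floxed Nr4a1 mice with CMV-Cre mice and breeding the Cre out again, its controls were WT littermates, and the labels give its genotype as cre. Cells had received no LPS (0 h) or 100 ng/ml LPS for 1 or 18 h, so that the 0 h lists serve both LPS comparisons. There were 3 lists for each of WT 0 h, WT 18 h, KO 0 h, KO 1 h and KO 18 h, and 2 for WT 1 h, of which 1 is labelled replicate 1-2. The labels do not say which libraries came from separate mice, so p-values measure the spread between libraries, which may be technical.

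The lists held 24389 to 71456 intervals, and their depth, recovered as background reads per kb, ran from 0.382 to 9.75. Depth moved with the groups, being 0.72 to 9.75 at 0 h, 0.382 to 4.14 at 1 h, 4.62 to 8.38 in WT and 1.10 to 1.76 in KO at 18 h. Values were therefore never compared between lists directly. Each peak was placed by its rank in its own list, and a rank score, log2 of 24389 divided by the rank, was compared, with 0 for a site that was absent or ranked later. A difference of 1 means that the rank number was divided by 2. A better rank is a higher place among the peaks of that library, and it cannot be told apart whether more cells, or each cell more, were open at a site. The list of KO 18 h replicate 1 stood apart, with a median peak width of 135 bp against 338 to 661 bp in the others, and calls that change without it are given both ways. Promoters of 6 of 8 macrophage markers were in the best ranks of all 17 lists, the others being Lyz2 in 16 and Fcgr1 in 15. Of 16 markers of other cells, 10 were in the best ranks of no list, Cd3e and Cd79a among them, but Pecam1 and Cdh5 were in all 17, S100a8 in 15 and Col1a1 in 14. The promoter of Nr4a1 held a peak in all 8 WT lists and all KO lists of 0 h and 1 h, but in 0 of 3 KO lists of 18 h. No list had a peak in a coding exon of Nr4a1, so the deletion could not be checked from these files.

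Elements on either side of the results are shown by their sequence, because the same locus held elements that moved in opposite directions. Each run is 201 bases of the GRCm38 plus strand centred on the peak summit, read from the reference genome, and none overlaps an annotated exon. Capitals mark matches to any of the 6 motifs searched: AP-1 (TGACTCA or TGAGTCA), NF-kB, ISRE, PU.1 (GAGGAAGT), C/EBP (TTGCNNAA or TTACNNAA) and NBRE (AAAGGTCA, the monomer motif of Nur77), each on both strands and allowed to overlap.
Nlrp3 promoter, better rank at 1 h, intergenic just upstream of the start site, chr11:59541359-59541559: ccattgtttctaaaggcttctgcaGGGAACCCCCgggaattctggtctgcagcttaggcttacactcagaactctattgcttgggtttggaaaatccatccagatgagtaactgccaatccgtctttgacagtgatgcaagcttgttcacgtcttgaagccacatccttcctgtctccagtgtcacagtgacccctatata
Nlrp3 intron, better rank at 1 h, chr11:59554246-59554446: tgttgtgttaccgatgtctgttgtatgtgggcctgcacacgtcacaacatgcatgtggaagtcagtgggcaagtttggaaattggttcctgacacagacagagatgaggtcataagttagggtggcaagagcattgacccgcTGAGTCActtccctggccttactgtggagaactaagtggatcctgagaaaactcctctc
Nlrp3 upstream element, worse rank at 1 h and better at 18 h, intergenic, chr11:59538420-59538620: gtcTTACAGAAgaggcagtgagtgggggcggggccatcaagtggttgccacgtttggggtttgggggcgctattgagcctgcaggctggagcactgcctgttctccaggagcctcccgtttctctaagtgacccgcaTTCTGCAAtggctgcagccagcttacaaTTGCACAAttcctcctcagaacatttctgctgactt
Gsdmd upstream element, worse rank at 1 h, intergenic, chr15:75857325-75857525: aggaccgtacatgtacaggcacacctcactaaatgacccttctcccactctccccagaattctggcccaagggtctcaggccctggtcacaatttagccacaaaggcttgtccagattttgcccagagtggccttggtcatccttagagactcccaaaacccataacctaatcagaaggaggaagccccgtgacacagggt
Nek7 intron, better rank at 1 h, chr1:138596162-138596362: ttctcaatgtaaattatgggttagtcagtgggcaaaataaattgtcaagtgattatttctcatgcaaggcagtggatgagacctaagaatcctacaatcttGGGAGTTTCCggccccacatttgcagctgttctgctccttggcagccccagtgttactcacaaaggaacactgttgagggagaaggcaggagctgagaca
Nlrp1b intron, better rank at 1 h, chr11:71159543-71159743: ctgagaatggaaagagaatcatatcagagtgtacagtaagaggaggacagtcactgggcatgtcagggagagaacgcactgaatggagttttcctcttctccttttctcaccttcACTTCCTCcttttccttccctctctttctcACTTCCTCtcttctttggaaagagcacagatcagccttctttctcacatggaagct
Of the elements that ranked better at 1 h, the Nlrp3 promoter and the Nek7 intron element held an NF-kB match, the Nlrp3 intron element an AP-1 match, and the Nlrp1b intron element a pair of PU.1 matches. The other 2 elements that ranked better, the Gsdmd promoter and the site at Olfr222, matched none of the 6. The other 2 elements with an NF-kB match were the Casp4 promoter, which passed at neither time, and the site near the Mroh6 promoter, which ranked worse at 18 h. The other AP-1 match lay in the element at the pseudogene Nlrp1c-ps, which passed at neither time. PU.1 matches also lay in every other Nlrp1b element, of which the promoter ranked worse at 18 h and the rest did not pass. A further PU.1 match lay in the Gsdmd element at 13.6 kb, which ranked worse at 1 h and better at 18 h. The Nlrp3 upstream element held 3 C/EBP matches, and the Gsdmd upstream element matched none of the 6. Among the 28 elements, an NF-kB match was found in 14.3%, against 4.83% of all 34155 sites. The other shares were 17.9% against 7.71% for PU.1, 7.14% against 16.2% for AP-1, 14.3% against 16.9% for C/EBP, 0% against 3.64% for ISRE and 3.57% against 1.04% for NBRE. With 28 elements each match moves a share by several percentage points, and a match describes letters, not a bound factor.

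After 1 h of LPS, 6 of the 28 elements ranked better than at 0 h and 7 ranked worse (limma on all 34155 sites, adjusted p under 0.05). These are 21.4% and 25% of the elements, beside 13.8% and 14.3% of all sites called higher and lower. The filter on sites bears on these counts, because 6 elements met it only through the lists of 1 time and so had to differ from the other times. They include 2 of the elements called better at 1 h, the Nek7 element at 23.4 kb and the site at Olfr222, and 1 called worse at 18 h, the site near the Mroh6 promoter, for which differences from 0 h are given without a test. The median difference was −0.26 over the 28 elements and −0.02 over all sites. Promoters of Nlrp3 and Gsdmd ranked better and that of Nek7 worse, whereas the other 5 promoters did not pass the test. Among the 20 distal elements, 4 ranked better, with the site at the Olfr222 promoter among them, and 6 worse. After 18 h, 2 elements ranked better and 4 worse, which is 7.14% and 14.3% beside 10.9% and 12.8% of all sites. None of the 6 elements that ranked better at 1 h passed the test at 18 h. Of the 7 that ranked worse at 1 h, 2 ranked better than at 0 h by 18 h, 1 was still worse and 4 did not pass. Without KO 18 h replicate 1 there were 6 better and 9 worse at 1 h, and 5 better and 4 worse at 18 h. When a peak had to cover 50% of a merged site, the 1 h calls of the Nlrp3 promoter (1.51, limma, adjusted p = 0.113), of the Gsdmd promoter (0.36, adjusted p = 0.498) and of the Gsdmd upstream element (−2.34, adjusted p = 0.0546) were lost. So was that of the Nlrp3 intron element at 11.6 kb (0.95, adjusted p = 0.0984). By the exact permutation test 6 ranked better and 8 worse at 1 h, and 1 better and 2 worse at 18 h. The heat map gives the scores of 27 of the 28 elements in every list.

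**Figure D1:**
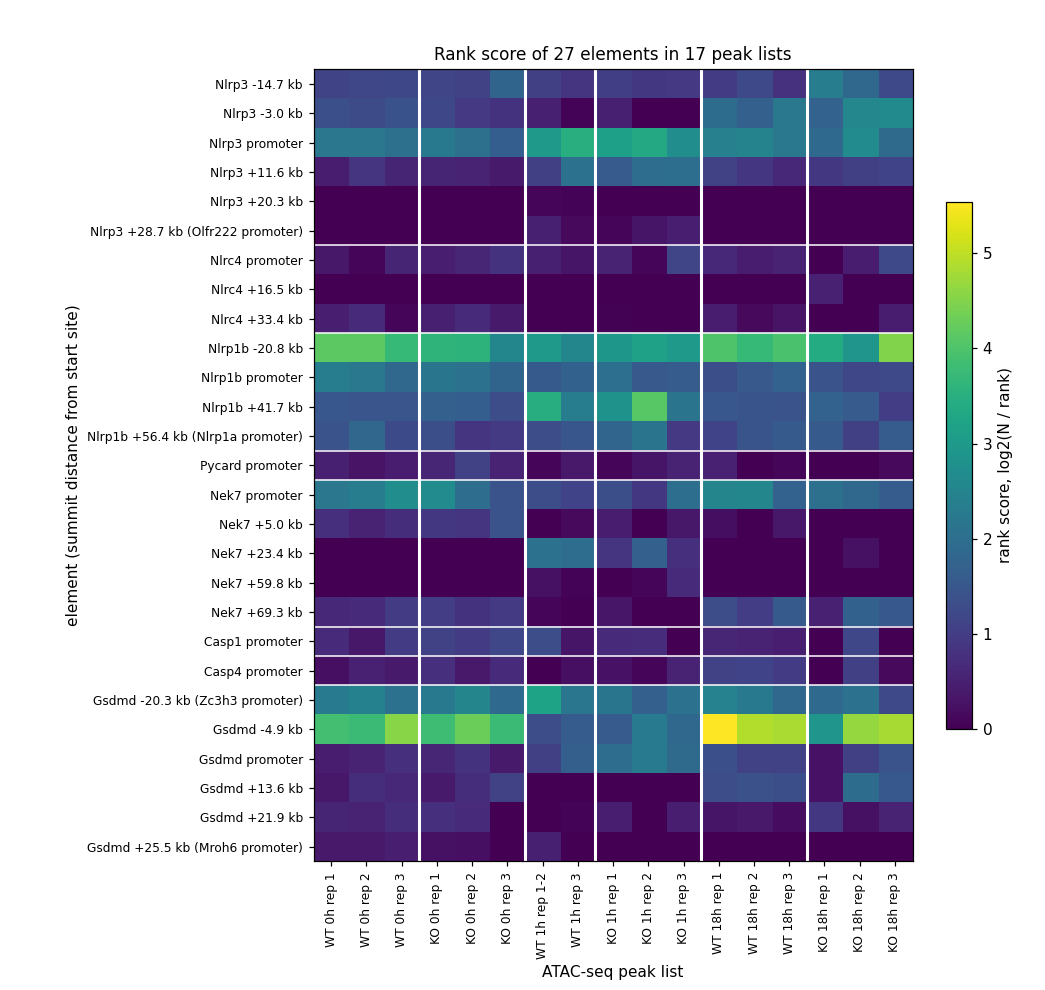
Rank score (colour, log2 of 24389 divided by the rank) of 27 of the 28 elements (rows, labelled by gene and by summit distance from its nearest start site, positive downstream) in the 17 peak lists (columns, grouped by genotype and LPS time). The Nek7 element at 23.4 kb is at 0 in all 6 lists of 0 h and above 0 in all 5 lists of 1 h, and the Gsdmd element 4.90 kb upstream has lower scores in every list of 1 h than in any other list.

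Nlrp3 encodes the sensor for the widest range of stimuli, and its locus (chr11:59541568-59566956) held 6 elements that moved in different directions. The promoter (chr11:59539920-59546974) ranked 5341, 5326.5 and 5911.5 in WT at 0 h and 5172.5, 5907 and 7713.5 in KO at 0 h. At 1 h it ranked 3059 and 2175 in WT and 2777, 2416.5 and 3703 in KO. All 5 lists of 1 h thus placed it better than all 6 of 0 h, in either genotype. Such separation of rank scores from 0 h was seen at 8.58% of all sites in the better and 9.11% in the worse direction at 1 h. At 18 h the shares were 5.53% and 7.2%. The difference in rank score was 1.09 ± 0.23 (SE, limma, adjusted p = 0.0016). At 18 h the ranks were 4544, 4345.5 and 5237.5 in WT and 6567, 3823.5 and 6511.5 in KO, overlapping those of 0 h, with a difference of 0.20 ± 0.22 (limma, adjusted p = 0.544).

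The Nlrp3 intron element, 11.6 kb downstream of the start site (chr11:59553859-59556471), behaved alike. It ranked 13681 to 18588 in the 6 lists of 0 h, then 11828 and 5691.5 in WT and 8153.5, 6173.5 and 6110.5 in KO at 1 h. Again the times did not overlap, and the difference was 1.15 ± 0.19 (limma, adjusted p = 0.0002). At 18 h it ranked 11320.5 to 15552.5, an overlap with 0 h, at 0.39 ± 0.18 (limma, adjusted p = 0.130).

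The Nlrp3 upstream element, 3.05 kb before the start site (chr11:59537889-59539289), moved the other way at 1 h. It ranked 9539.5, 10206.5 and 9335 in WT and 10579, 12837.5 and 13955.5 in KO at 0 h. At 1 h the ranks were 17413.5 and 23650 in WT and 17366.5, 26728.5 and 27793 in KO. At 18 h they were 6245.5, 7473.5 and 5237.5 in WT and 7299, 4150 and 3938 in KO. Every list of 1 h lay behind, and every list of 18 h ahead of, all lists of 0 h. The differences were −0.94 ± 0.20 at 1 h (limma, adjusted p = 0.0018) and 0.98 ± 0.19 at 18 h (limma, adjusted p = 0.001). With the requirement that a peak cover 50% of a site, the value at 18 h was 0.11 and no longer passed (limma, adjusted p = 0.797).

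Among the other Nlrp3 elements, the one 14.7 kb upstream ranked 7108.5 to 11350 at 0 h and 11828 to 13625.5 at 1 h, but its difference of −0.32 ± 0.20 did not pass (limma, adjusted p = 0.267). The exact permutation test gave it the smallest p it can, 0.005 (adjusted p = 0.0272). Past the 3′ end of Nlrp3, a site at the olfactory receptor gene Olfr222 (chr11:59567240-59572463) was in the best ranks of all 5 lists of 1 h and of none at 0 or 18 h. Its score was low, with a difference of 0.30 ± 0.07 at 1 h, or 0.19 with depth as a covariate. The value was 0.01 with 50% coverage required and 0.93 with all deposited peaks. It met the filter only through those 5 lists. The intron element 20.3 kb downstream reached the best ranks in 2 lists, both WT at 1 h. It was present in all 5 lists of 1 h when whole lists were read, at ranks 23185 to 30493, and also in 4 of 6 lists of 0 h, at 36705 to 63820.5, and in 1 of 6 of 18 h, at 58605.5.

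Nek7, the kinase that binds NLRP3, spans chr1:138482875-138620141 on the minus strand and held 5 elements. The intron element 23.4 kb downstream of the start site (chr1:138595992-138596709) was outside the best ranks in all 6 lists of 0 h, where 4 whole lists placed it between 35382.5 and 47463.5. At 1 h it ranked 5848.5 and 6217.5 in WT and 13385, 7527 and 14607.5 in KO. It was in the best ranks of only 1 of 6 lists at 18 h, at 20443 in KO replicate 2. The difference at 1 h was 1.56 ± 0.15 and at 18 h 0.04 ± 0.14. Since it met the filter through the lists of 1 h, and its scores at 0 h are all set to 0, these are a description.

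The intron element 59.8 kb downstream was in the best ranks of 4 lists of 1 h and of no other list. Whole lists held it in all 5 of 1 h, at 15545 to 27184, in 1 of 6 at 0 h, at 56233.5, and in 2 of 6 at 18 h, at 36784.5 and 41999.5. Its difference at 1 h was 0.20 ± 0.08, and it is not among the elements called. The value was 1.22 with all deposited peaks and 0.26 without KO 1 h replicate 1. This element too met the filter only through the lists of 1 h, so these values are a description.

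The other Nek7 elements ranked worse at 1 h. The intron element 69.3 kb downstream ranked 12124 to 15763 at 0 h, 19321.5 to 30745 at 1 h and 7449.5 to 17260 at 18 h. Its difference at 1 h was −0.77 ± 0.20 (limma, adjusted p = 0.008) and −0.70 with depth as a covariate, which did not pass (limma, adjusted p = 0.0801). With 50% coverage required it was −0.49 (limma, adjusted p = 0.254), and with the 10000 best peaks it was 0. At 18 h it was 0.43 ± 0.19 (limma, adjusted p = 0.111). Without KO 18 h replicate 1 the latter was 0.61 and passed (limma, adjusted p = 0.00325). The intron element 4.97 kb downstream, at ranks 9065 to 16655.5 at 0 h, was at 18092 or later in every list of 1 h and of 18 h that held it. It was lower at both times, by −0.70 ± 0.13 at 1 h (limma, adjusted p = 0.0007) and −0.77 ± 0.12 at 18 h (limma, adjusted p = 0.0002).
The Nek7 promoter (chr1:138617473-138620477) ranked 3689.5 to 9065 at 0 h and 6110.5 to 13130 at 1 h, so that the times overlapped. Its difference of −0.91 ± 0.27 passed (limma, adjusted p = 0.0159) but did not with depth as a covariate (−0.52, limma, adjusted p = 0.299), with 50% coverage required (limma, adjusted p = 0.141) or without WT 1 h replicate 3 (−0.86, limma, adjusted p = 0.0523).

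Nlrp1b, a sensor that is activated by proteolysis and whose alleles differ between mouse strains, lies at chr11:71153102-71230733 on the minus strand, with all 4 of its elements in the best ranks of all 17 lists. The intron element at chr11:71159301-71160199 is 41.7 kb downstream of the nearest annotated start site, which lies inside the gene body. It is further from the start at the promoter described below. Its ranks at 0 h were 8593.5, 8832.5 and 8802 in WT and 7550, 7683.5 and 9858.5 in KO. At 1 h it rose to 2228.5 and 4762.5 in WT and 3402.5, 1425.5 and 5522 in KO. At 18 h its ranks of 8592.5, 8980.5 and 9157 in WT and 7299, 8136.5 and 12164 in KO overlapped those of 0 h. The difference was 1.45 ± 0.30 at 1 h (limma, adjusted p = 0.0015) and −0.07 ± 0.28 at 18 h (limma, adjusted p = 0.935). The Nlrp1b promoter (chr11:71230367-71231429) ranked 4878 to 7108.5 at 0 h, 5956 to 8383.5 at 1 h and 7326.5 to 10733 at 18 h. All lists of 18 h lay behind those of 0 h, by −0.67 ± 0.17 (limma, adjusted p = 0.0089), though with 50% coverage required the value was −1.10 and did not pass (limma, adjusted p = 0.062), while the 1 h value was −0.39 ± 0.18 (limma, adjusted p = 0.129). The remaining pair did not pass at either time. These were the promoter of the neighbouring paralog Nlrp1a, at ranks 5574 to 13391.5, and an intron of the pseudogene Nlrp1c-ps, at 1092 to 4213. The 1 h difference of the latter was −0.72 ± 0.31 (limma, adjusted p = 0.0943). Without KO 0 h replicate 3 it was −0.89 and passed (limma, adjusted p = 0.0386). Nlrp1b, Nlrp1a and Nlrp1c-ps are similar in sequence, so that their levels are uncertain where reads map to more than 1 of them.

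Nlrc4, the sensor of flagellin and type III secretion proteins bound by NAIPs, spans chr17:74425438-74459142. Its promoter (chr17:74458446-74459622) ranked 13955.5 to 22693 at 0 h, 10897 to 22863 at 1 h and 10507.5 to 28007 at 18 h, full overlap. The differences were 0.01 at 1 h, with a 95% confidence interval of −0.43 to 0.45, and 0.06 at 18 h, with an interval of −0.36 to 0.48. An intron element of the neighbouring zinc transporter gene Slc30a6 ranked 15254.5 to 23137.5 at 0 h and at 23787 or later in the 3 of 5 lists of 1 h that held it. Its difference was −0.45 ± 0.12 (limma, adjusted p = 0.0086), and −0.46 with depth as a covariate (limma, adjusted p = 0.0588). An intron element of Nlrc4 itself reached the best ranks in 2 lists and did not pass.

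Pycard, which encodes the adaptor ASC, had a promoter (chr7:127990229-127994277) at ranks 11350 to 19860.5 at 0 h and 16571.5 to 23214 at 1 h. At 18 h it ranked 17128, 25076.5 and 23241 in WT and 26000 and 22024.5 in KO, and it was absent from the list of KO replicate 1. The times overlapped, and the difference at 18 h was −0.45 ± 0.13 (limma, adjusted p = 0.0177). Without KO 18 h replicate 1 it was −0.44 (limma, adjusted p = 0.0249), and without WT 18 h replicate 2 it was −0.41 and no longer passed (limma, adjusted p = 0.0545). With 50% coverage required it was −0.22 and did not pass (limma, adjusted p = 0.231).

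Casp1 and Casp4 encode the inflammatory caspases and lie next to each other on chromosome 9, so that each promoter is within the 20 kb window of both. The Casp1 promoter (chr9:5298036-5300266) ranked 10715 to 19175 at 0 h, 9849.5 to 30493 at 1 h and 10733 to 26977.5 at 18 h in the lists that held it. The Casp4 promoter (chr9:5307582-5310017) ranked 14588.5 to 20728 at 0 h and 16571.5 to 22863 in the 4 lists of 1 h that held it. At 18 h it ranked 11608, 11227.5 and 12299 in WT, ahead of all lists of 0 h, and 28007, 11750 and 22024.5 in KO, across the range of 0 h. Neither promoter passed the test at 1 or 18 h. Differences were −0.24 ± 0.23 and −0.41 ± 0.22 for Casp1 and −0.28 ± 0.17 and 0.24 ± 0.16 for Casp4 at 1 and 18 h. Without KO 18 h replicate 1, which held no peak at the Casp1 promoter, the values at 18 h were −0.31 for Casp1 and 0.34 for Casp4 and did not pass (limma, adjusted p = 0.340 and 0.119). Without KO 18 h replicate 2 the Casp1 value was −0.61 and passed (limma, adjusted p = 0.0248).

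**Figure D2:**
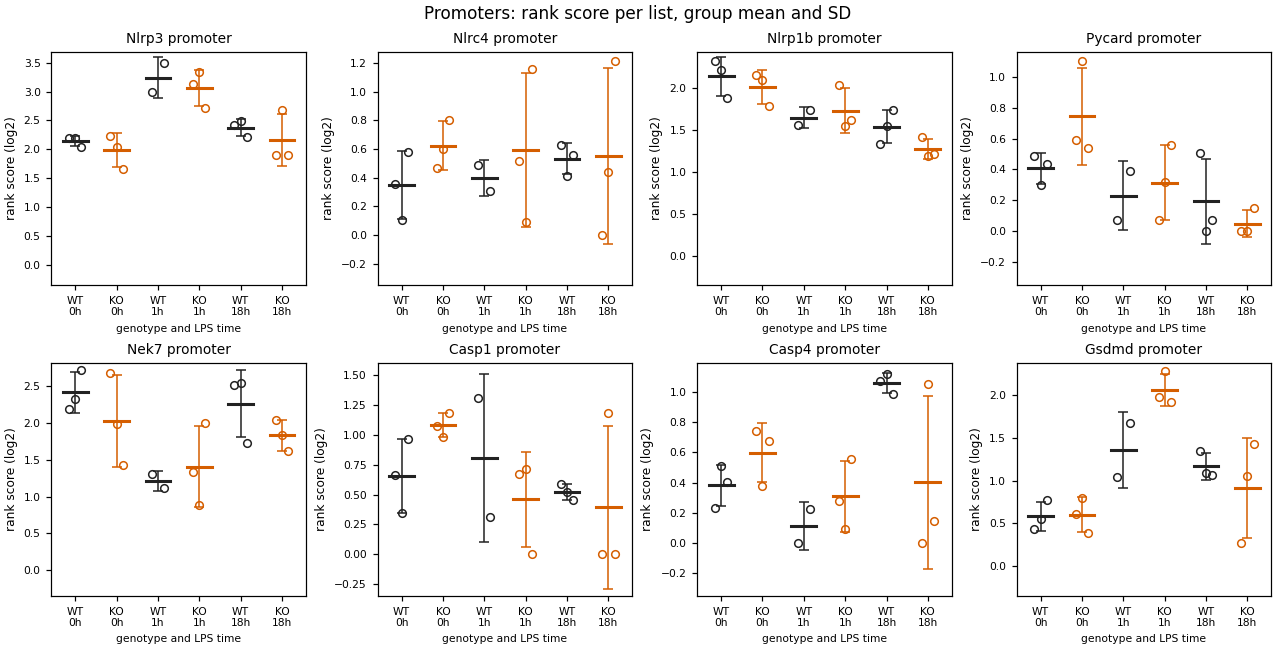
Rank score (log2, vertical axis) of the 8 promoters in every list, by genotype and LPS time. Circles are lists, thick bars group means and thin bars the SD over 3 lists (2 for WT at 1 h). The Nlrp3 and Gsdmd promoters stand higher at 1 h in both genotypes, and the Casp1, Casp4 and Nlrc4 promoters overlap between 0 h and 1 h.

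Gsdmd, the pore-forming effector, at chr15:75862327-75867408, had 6 elements, of which its promoter and the nearest upstream element moved in opposite directions at 1 h. The promoter (chr15:75861624-75862973) ranked 18040, 16655.5 and 14299.5 in WT and 16023.5, 13993 and 18588 in KO at 0 h. At 1 h it ranked 11828 and 7656 in WT and 6161, 5022 and 6425 in KO. At 18 h it ranked 9546, 11449.5 and 11623.5 in WT and 20182, 11750 and 9081.5 in KO. All lists of 1 h lay ahead of 0 h, as did all lists of 18 h apart from KO replicate 1. The difference was 1.12 ± 0.21 at 1 h (limma, adjusted p = 0.0006) and 0.45 ± 0.19 at 18 h (limma, adjusted p = 0.104). Without KO 18 h replicate 1 the latter was 0.61 and passed (limma, adjusted p = 0.00918).

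The Gsdmd upstream element, 4.90 kb before the start site (chr15:75856562-75858081), was among the strongest peaks of resting cells. It ranked 1646.5, 1786 and 1043.5 in WT and 1718, 1239 and 1780 in KO at 0 h. At 1 h it fell to 9849.5 and 7974.5 in WT and 8153.5, 5022 and 6785 in KO. At 18 h it ranked 523.5, 813 and 847 in WT and 3311.5, 962 and 861 in KO. Hence every list of 1 h was behind every list of 0 h, and 5 of 6 lists of 18 h were ahead of them. The difference at 1 h, −2.34 ± 0.35, was the largest in size among the 28 elements (limma, adjusted p = 7.69e-05). At 18 h the value was 0.59 ± 0.33 (limma, adjusted p = 0.212), and 0.90 without KO replicate 1 (limma, adjusted p = 0.0107).

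The intergenic element 13.6 kb downstream of the Gsdmd start site (chr15:75875285-75876547) was in the best ranks of all 12 lists of 0 and 18 h and of none at 1 h. Its differences of −0.65 ± 0.23 at 1 h (limma, adjusted p = 0.0423) and 0.64 ± 0.22 at 18 h (limma, adjusted p = 0.0389) lie close to the threshold, and for 13 of the 17 lists leaving it out ended the call at 1 h, as at 18 h. Both passed without KO 18 h replicate 1, at −0.65 (limma, adjusted p = 0.0019) and 0.89 (limma, adjusted p = 0.000171). With 50% coverage required both calls were lost, at −0.17 and 0.75 (limma, adjusted p = 0.653 and 0.0525). They were also lost with the 10000 best peaks, at 0 and 0.18. Of the elements at other genes in the Gsdmd window, the Zc3h3 promoter ranked 2608.5 to 10507.5 and did not pass at either time. A coding exon of Mroh6 also did not pass, although its 1 h value of −0.38 did without KO 18 h replicate 1 (limma, adjusted p = 0.0484), and the site near the Mroh6 promoter was in the best ranks of 5 lists at 0 h, 1 at 1 h and none at 18 h. For the latter, which met the filter only through the lists of 0 h, the difference at 18 h was −0.28 ± 0.08.

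**Figure D3:**
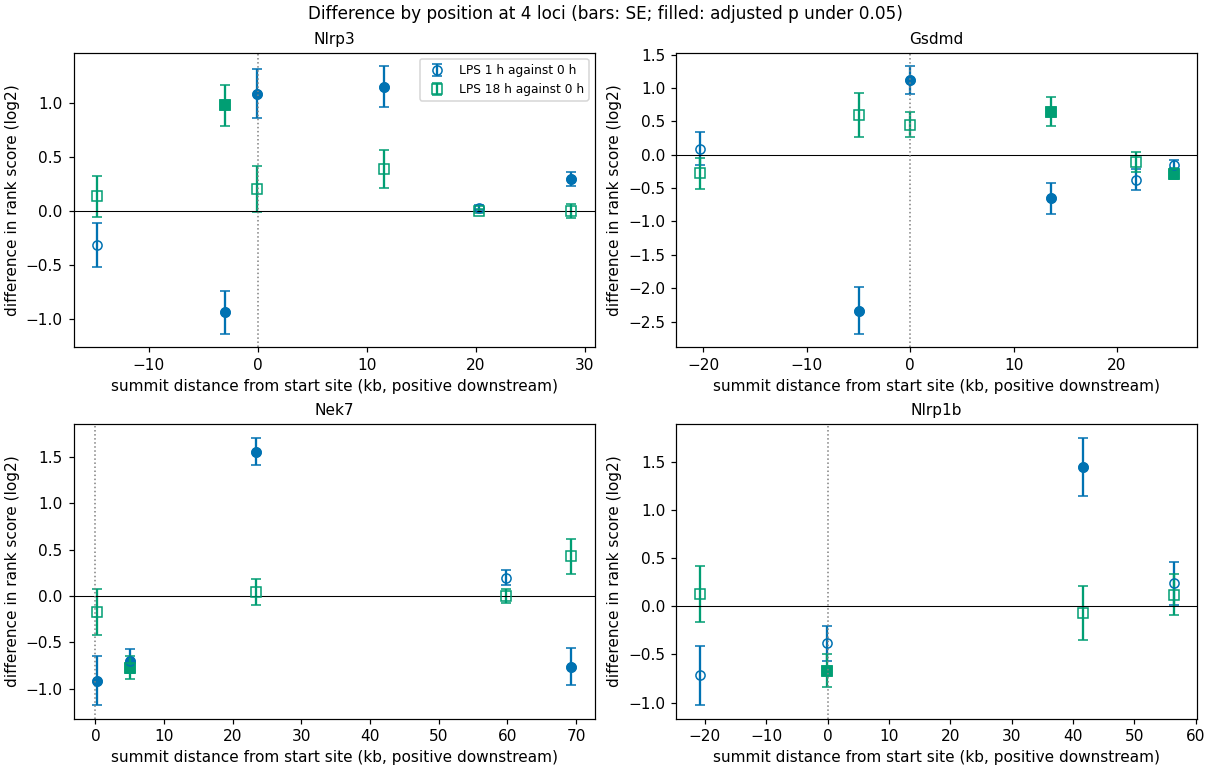
Difference in rank score from 0 h (log2, vertical axis) against the distance of the summit from the gene's nearest start site (kb, positive downstream) at the 4 loci with the most elements. At Nlrp1b this is not the same start for all elements. Circles are 1 h, squares 18 h, bars the SE, and filled symbols passed the test. At Nlrp3 and Gsdmd the promoter lies above 0 and the nearest upstream element below 0 at 1 h.

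**Figure D4:**
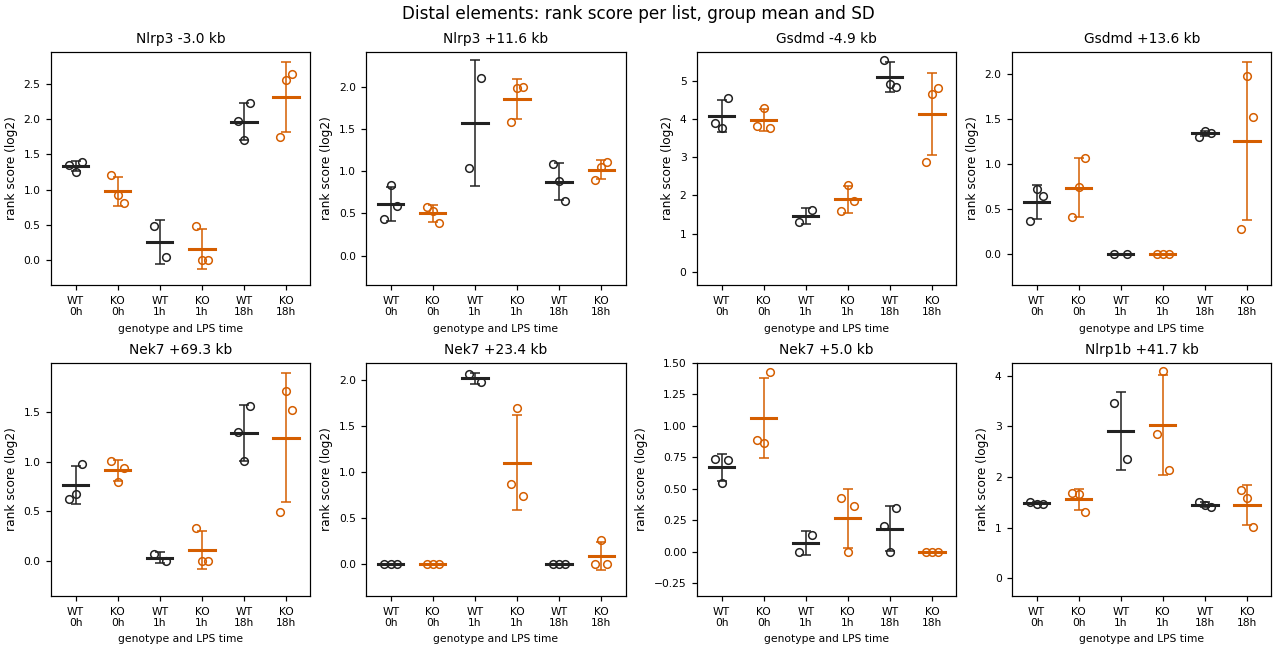
Rank score (log2, vertical axis) of 8 distal elements in every list, by genotype and LPS time, with group means (thick bars) and SD (thin bars). Of the 5 elements with lower means at 1 h, 4 have group means at 18 h above those of 0 h in both genotypes, and the Nek7 element at 5.0 kb does not.

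Whether the loss of Nur77 moved these loci was asked over the 3 times together. No element was called higher or lower in KO than in WT (limma, 0 of 28 in each direction), beside 0.135% and 0.261% of all sites. At an unadjusted p under 0.05 there were 0 higher and 2 lower, and the exact permutation test per element gave 0 calls after adjustment, with 0.115 the smallest adjusted p at any site. The unadjusted limma pair were the site near the Mroh6 promoter, at −0.16 ± 0.07, and the Nek7 element at 23.4 kb, at −0.28 ± 0.12. Both met the filter on sites through 1 time only, and neither passed after adjustment. By the exact permutation test the unadjusted p was 0.02 for the first and 0.2 for the second. The other element under 0.05 by that test was the Zc3h3 promoter, at −0.41 (exact permutation test, unadjusted p = 0.04675). For the promoters the differences KO minus WT ran from −0.20 for Nek7 (95% confidence interval −0.65 to 0.24) to 0.16 for Nlrc4 (−0.19 to 0.52). The Nlrp3 promoter was at −0.19 (−0.57 to 0.20), the Gsdmd promoter at 0.16 (−0.19 to 0.50) and the Casp1 promoter at −0.02 (−0.41 to 0.38). These intervals are not adjusted over sites, so that larger differences could also have missed the threshold.

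The response to LPS was compared between genotypes with an interaction term, and no element passed at either time. At 1 h 0.0146% and 0.082% of all sites were called higher and lower, and at 18 h 0% and 0.00586%. With unadjusted p under 0.05 there were 0 higher and 1 lower at 1 h, and 0 higher and 2 lower at 18 h (limma). The 1 at 1 h was the Nek7 element at 23.4 kb, whose score rose by 2.02 in WT and by 1.10 in KO. The difference of −0.92 ± 0.30 did not pass. As its scores at 0 h are all 0, this is the difference between the genotypes at 1 h. Its KO lists at 1 h all ranked behind both WT lists of that time. Without KO 1 h replicate 2, the KO list nearest to the WT lists, the difference was −1.21 and crossed the threshold. Groups whose scores are all 0 add no spread to the fit, so the values of this element are a description. At 18 h the pair was the Casp4 promoter, with a change of 0.68 in WT and −0.20 in KO, and the Nek7 element at 4.97 kb. The Casp4 difference was −0.87 ± 0.33 (limma, adjusted p = 0.699), −0.67 without KO 18 h replicate 1 (limma, adjusted p = 0.614) and −1.20 without KO 18 h replicate 2 (limma, adjusted p = 0.0422).

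**Figure D5:**
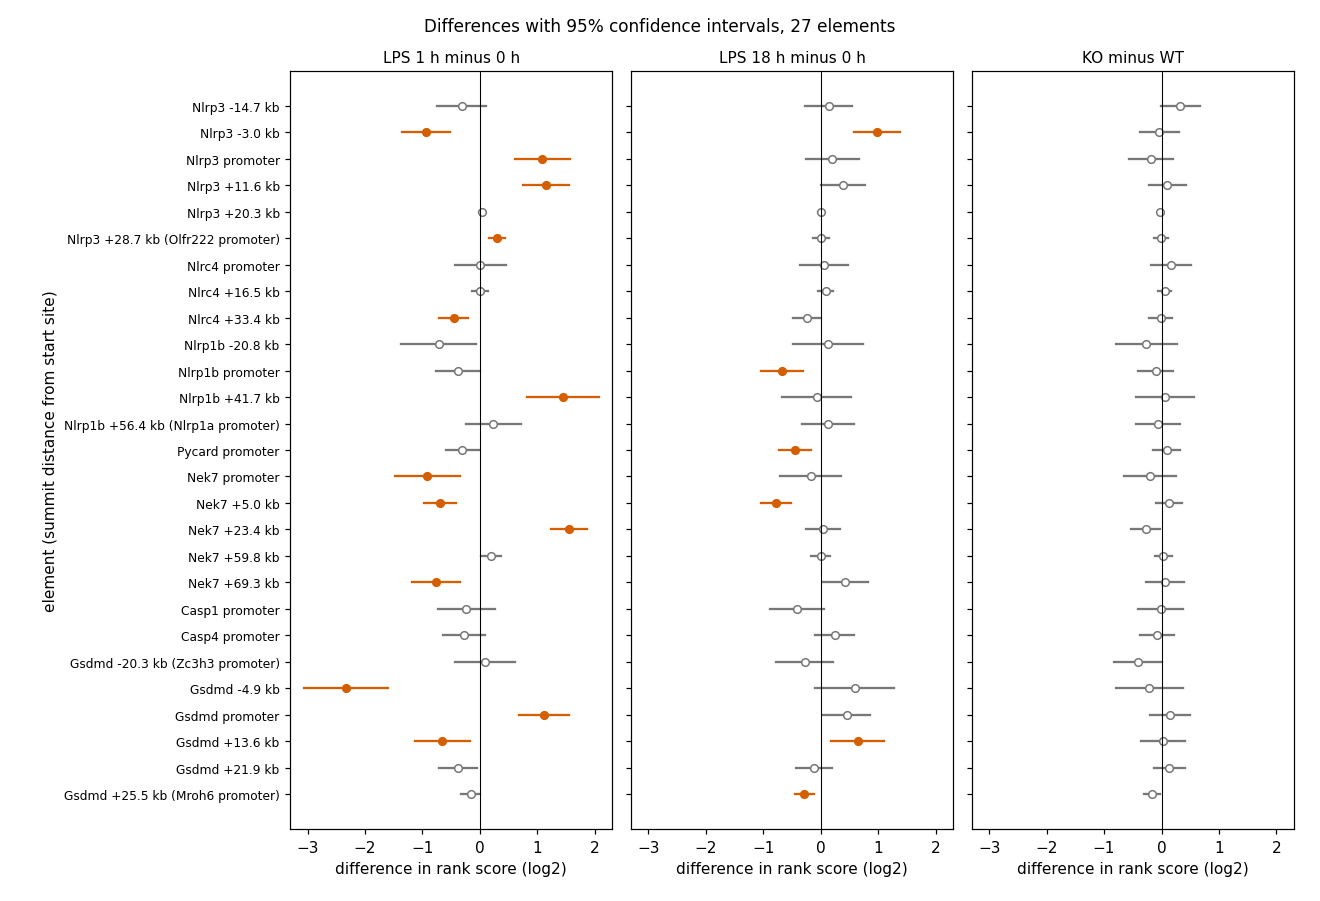
Differences in rank score (log2, horizontal axis) with 95% confidence intervals for 27 of the 28 elements at 1 h and 18 h of LPS against 0 h and for KO against WT. Filled orange points passed the test, and open grey points did not. There are 13 filled points at 1 h, 6 at 18 h and 0 for genotype.

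Of the weaker sites, whole lists held 11 at Nlrp3, more than at any of the other 7 genes. Inside the gene body, a site 18.1 kb downstream of the start (chr11:59558136-59561246) was listed in all 5 lists of 1 h, in 1 of 6 at 0 h and in none of 6 at 18 h. Those at 22.7 kb and 24.1 kb, which adjoin each other, were each listed in 4 of 5 lists of 1 h and in no other list. Near Gsdmd, a site at −11.3 kb (chr15:75850831-75851178) was listed in 4 of 5 lists of 1 h and 1 of 6 at 0 h. Conversely, a site in the Nlrp1b gene body (chr11:71164056-71164980), 66.2 kb from the 5′ end of the gene, was listed in 5 of 6 lists at 18 h and in none of the 11 others. Distances of weak sites are from the 5′ end of the gene, not from the nearest start site as for the elements. Other weak sites were missing at 1 h, such as one 36.9 kb downstream of the Nlrp3 start, listed in 4 of 6 lists at 0 h, 0 of 5 at 1 h and 1 of 6 at 18 h. Of all 50 weak sites, 13 were listed at 1 h alone, 10 at 0 h alone, 5 at 18 h alone, 4 at 0 and 18 h, and the rest at 1 h and another time. However, 17 of the 50 were in 1 list only, which places them at 1 time by construction. The same shares over weak sites elsewhere in the genome were not computed, so the counts are a description. These sites were named after their lists were seen, and the best rank of any named here was 14876.5. Shallow lists hold fewer such sites, and no test was made on them.

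Beyond the 8 genes, 25 genes of the same pathway were listed, from other sensors to substrates, and 22 of them had 88 tested sites outside the elements above. At 1 h 19 sites (21.6%) ranked better and 8 (9.09%) worse, beside 13.8% and 14.3% of all sites. At 18 h 21 (23.9%) ranked better and 6 (6.82%) worse, beside 10.9% and 12.8%, with 0 in either direction for KO against WT or for either interaction (limma). Of those ranking better, 8 at 1 h and 8 at 18 h had a score of 0 in every list of 0 h, so that they met the filter through the lists of LPS and had to differ. The following were chosen after their values were seen. The promoter of Il18, a caspase-1 substrate, changed by 2.34 ± 0.32 at 1 h and 0.37 ± 0.30 at 18 h (limma, adjusted p = 3.19e-05 and 0.416). The Il1b promoter, of the other main substrate, was outside the best ranks in all lists of 0 h and met the filter through those of 1 h, with values of 1.26 ± 0.11 and 0.01 ± 0.10. The promoter of Gbp2, a guanylate-binding protein that helps to expose LPS to caspase-11, was at or near a score of 0 in the lists of 0 h, met the filter through those of LPS and had values of 1.27 ± 0.18 and 1.35 ± 0.17. The promoter of Gsdme, a gasdermin cleaved by caspase-3, ranked worse at both times, by −0.68 ± 0.16 and −0.69 ± 0.15. That of P2rx7, the ATP-gated channel upstream of NLRP3, ranked worse at 18 h, by −0.77 ± 0.22 (limma, adjusted p = 0.018), and its 1 h value of −0.34 ± 0.24 did not pass (limma, adjusted p = 0.322).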

How the data were processed

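ATAC-seq libraries of BMDMs were represented by 17 deposited peak lists, grouped by GEO labels. Per the labels and the study's methods, the authors trimmed reads with cutadapt 2.6, mapped them to mm10 and called peaks per library with the snakeATAC pipeline. Peak names in the deposited lists carry a mapping quality of 20, the removal of duplicates and of mitochondrial reads, and a q-value of 0.001. DiffBind 3.0.15 is also named. Versions of the aligner and peak caller are not given in the sources used here. In the deposited lists the fold column is the ratio of pileup to background at a summit, and the p-value column is on the −log10 scale. Both depend on depth, so they only ranked peaks inside a list. Whole reads were recovered from them for 100% of entries, which gave the relative depth of each list.

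Entries sharing an interval were collapsed to the smallest p-value, and tied p-values shared their mean rank. Sites were merged best 24389 intervals (overlap of at least 1 bp) seen in at least 2 lists. Rank scores were fitted with limma 3.58.1 (R 4.3.3, trend and robust) as 6 group means over all 17 lists, with Benjamini-Hochberg adjustment over 34155 sites and two-sided tests, and the fit was tested on simulated data. Exact permutation tests enumerated 200, 400 and 4000 regroupings, with smallest p of 0.005, 0.005 and 0.00025. Motifs were sought within 100 bp of summits (Python 3.11.15, pysam 0.24.0). Named were the 8 promoters, every element called in any comparison and the best-ranked distal element of each gene, except 1 element that is counted but not reported here. Members and gene lists were chosen with earlier results of these data known. Alternatives were another number of peaks, all peaks, no site filter, a coverage of 50%, random ties, linear ranks, a depth covariate, a replicate block, a minimum difference of 1 and leaving out each list.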

Additional observations from a re-analysis of the deposited data

How the results depend on the processing

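No recomputed value of a named element reversed a call. Over the 28 elements and 5 comparisons, a call was lost 28 times and gained 16 times when a list was left out, and lost 41 times and gained 9 times under the other refits with limma. A further 10 calls had no value with the 10000 best peaks, where sites were merged anew and none with the same boundaries formed. With the 10000 best peaks, 2 elements ranked worse at 1 h, and 1 ranked better and 1 worse at 18 h. Requiring peaks to cover 50% of a site left 2 better at 1 h, 0 better and 2 worse at 18 h, and 1 lower in KO, the Nlrp3 upstream element (−0.96, limma, adjusted p = 0.015). Merged sites are wide, so that fewer peaks count under that rule. Without a site filter 1 ranked better at 18 h. With depth as a covariate 3 ranked worse at 1 h and 1 better at 18 h. With a minimum difference of 1, 1 ranked worse at 1 h and 0 in either direction at 18 h. The exact permutation test gave 1 better and 2 worse at 18 h.

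Leaving out each list in turn gave 6 to 7 better and 5 to 9 worse at 1 h, 1 to 5 better and 3 to 5 worse at 18 h, 0 to 0 higher and 0 to 1 lower in KO, and, for the interactions, 0 to 0 higher and 0 to 1 lower at each time. The 5 came without KO 18 h replicate 1. The single KO calls were the Nek7 element at 23.4 kb without KO 1 h replicate 2 (−0.38) and the site near the Mroh6 promoter without WT 1 h replicate 3 (−0.24). The 1 h call of the Nlrp1b intron element passed under every alternative. The interactions were not run under the exact permutation test.

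Same-numbered libraries did not deviate together (r from −0.226 to 0.206, 4 of 35 pairs over 0.1), and the labels pair nothing. With the replicate block, 5 elements ranked better and 5 worse at 1 h, 2 better and 4 worse at 18 h, and 0 in either direction for KO or the interactions. Depth limits the shallowest lists, in which weak sites are not listed.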
